A study of Mus musculus with 6 samples.

Results

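The 10 genes described here encode receptors and ligands of the IL-1 and IL-6 cytokine families and of TSLP: Il33, Il1rl1, Il1r1, Il1rap, Il1r2, Il1rl2, Il18r1, Il6, Il11ra1 and Tslp. They were taken by gene symbol from the 31053 genes counted in stromal vascular cells of inguinal white adipose tissue (iWAT), so no measured value chose them, although the list was drawn up with earlier results of these data known. Each gene was followed by its unique molecular identifiers (UMIs, each marking a captured transcript) in 6 libraries and in classes of cells set by marker genes that include none of the 10.

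IL-1 family receptors are paired chains: a binding chain (IL1R1 for IL-1, ST2 encoded by Il1rl1 for IL-33, IL1RL2 for IL-36) recruits the shared accessory chain IL1RAP and signals through MYD88, IRAK kinases and NF-kB, while IL-18 uses IL18R1 with its own accessory chain IL18RAP. IL1R2 is a decoy that binds IL-1 and carries no signalling domain. IL-33 is an alarmin kept in the nucleus of stromal cells and released on damage, and in adipose tissue stroma-derived IL-33 is known for sustaining ST2-bearing group 2 innate lymphoid cells and regulatory T cells. IL-6 is a typical product of IL-1-stimulated fibroblasts, IL11RA binds IL-11 and signals through the gp130 chain that it shares with the IL-6 receptor, and TSLP is an epithelial and stromal cytokine of type 2 immunity.

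Cells came from male C57BL/6 mice of 9 weeks (young) or 57 weeks (aged), all acclimated to 30 °C for weeks and then either left at thermoneutrality (TN, 30 °C) or given 3 days (3D cold) or 14 days (14D cold) at 6 °C, and all housed singly at the end. They were C57BL/6JN or C57BL/6J animals from separate suppliers, and the supplier of each group is not given in the sources used here, so age cannot be told apart from any difference between suppliers. How many mice each library came from is not stated. The methods say that animals were pooled only where this is noted, with no such note for these libraries. Live cells depleted of CD45+ immune cells by sorting were sequenced with 3' droplet chemistry, giving 1 library for each age and temperature: young TN, young 3D cold, young 14D cold, aged TN, aged 3D cold and aged 14D cold. Age was therefore compared over 3 libraries against 3. The p-values for age and temperature measure only the spread of these libraries around a fit in which both effects add up. A change of the age effect with temperature is part of that spread. It could not be tested, because a fit with that term leaves no residual degrees of freedom. Where the young or the aged library of a temperature was left out, age was compared over the other temperatures alone. Both fits then give in effect the same age contrast and are not separate checks on age.

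The libraries held between 52068837 and 88508349 UMIs, and 57326 of 68103 barcodes were kept as cells, 27662 from young and 29664 from aged mice. Median UMIs per kept cell ran from 6726 to 9904 in 5 libraries and stood at 2741.5 in the aged 14D cold library, where 36.5% of the cells had fewer than 2000 UMIs against 3.48% in the aged TN library. Pairs of libraries shared 18 to 35 cell barcodes, at most 0.374% of the smaller library. The cell classes were 22724 Dpp4+ fibroblasts (39.6% of cells, median 7569 UMIs), 20877 Icam1+ preadipocytes (36.4%, 8029 UMIs), 2081 Cd142+ fibroblasts (3.63%, 5413 UMIs), 3928 blood endothelial cells (6.85%, 3363 UMIs), 866 smooth muscle cells and pericytes (1.51%, 3790 UMIs) and 255 residual immune cells (0.445%, 5288 UMIs). Of the marker genes, 10 of 10 were detected in the Dpp4+ class, 9 of 10 in the Icam1+ class, 6 of 6 in the Cd142+ class, 10 of 10 in blood endothelial cells, 10 of 10 in smooth muscle cells and pericytes and 9 of 9 in immune cells. Among these 6 classes Cd142+ had the softest border, with 19.8% of its cells close to the margin between classes. For the 59 lymphatic endothelial cells the share was 33.9%. Within the Dpp4+ class the aged TN library stood apart: 65.7% of its cells there lay in a cluster led by Dmkn, Krtdap and Sbsn, against 12.7% to 20.9% in the other 5 libraries. The aged 14D cold library also had 29.4% of its Dpp4+ cells in a cluster led by immunoglobulin and haemoglobin genes, against 0.181% to 1.01% elsewhere. Levels are given as CPM, the UMIs of a gene scaled to the total of its class in a library, and fold changes are those of edgeR, which rescales libraries with TMM factors.

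Of the receptor genes, 5 lie side by side on the forward strand of chromosome 1. In GRCm38 these are Il1r2 (ENSMUSG00000026073, 40074079 to 40125231), Il1r1 (ENSMUSG00000026072, 40225080 to 40317257), Il1rl2 (ENSMUSG00000070942, 40324610 to 40367562), Il1rl1 (ENSMUSG00000026069, 40429570 to 40465415) and Il18r1 (ENSMUSG00000026070, 40465552 to 40500854), which span 426.8 kb. Il1r2 stands 99.9 kb from Il1r1, while Il1rl1 ends 136 bases before Il18r1 begins, and the accessory chain gene Il18rap follows 14507 bases after Il18r1. The other members are scattered, all on the forward strand: Il1rap (ENSMUSG00000022514) at chromosome 16, 26581704 to 26730117, Il33 (ENSMUSG00000024810) at chromosome 19, 29925114 to 29960718, Il11ra1 (ENSMUSG00000073889) at chromosome 4, 41699989 to 41769474, Il6 (ENSMUSG00000025746) at chromosome 5, 30013114 to 30019981, and Tslp (ENSMUSG00000024379) at chromosome 18, 32815383 to 32819797. All 10 are annotated as protein-coding genes. Reads were counted per annotated gene, and those of Il11ra1 could be shared with near-identical copies: Il11ra1 had 124528 UMIs, Gm13305 had 602, Gm13306 had 66, Gm13304 had 1 and the entries named Il11ra2 had 0, so the Il11ra1 level is uncertain by what the counting could have split.

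**Figure D1:**
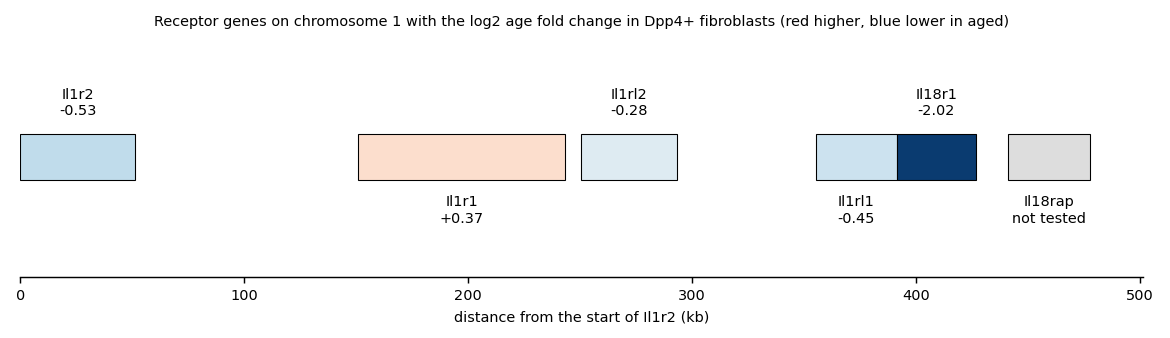
Receptor genes of chromosome 1 drawn to scale by distance in kb from the start of Il1r2, with the log2 fold change of aged against young Dpp4+ fibroblasts written at each gene. Within the 426.8 kb of the 5 members the values run from -2.02 at Il18r1 to 0.37 at Il1r1, and Il18rap was too low to be tested.

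The sequences upstream of 2 members are shown for reference, with no link to the values tested. Il18r1 had the largest age difference of the 10 genes and starts 136 bases after Il1rl1 ends. Il6 was the only one of the 9 members searched whose promoter held a motif. Promoter sequences came from RefSeq (GRCm38.p6), and of the 10 members Tslp was not searched. The first line below is the whole stretch between Il1rl1 and Il18r1 (chr1:40465416-40465551, forward strand, 5′ to 3′), in lower case throughout because no motif was found. The other line is the stretch of 250 bases before the start of Il6 (chr5:30012864-30013113, forward strand), with the 2 motif matches in capitals.
Il18r1 upstream: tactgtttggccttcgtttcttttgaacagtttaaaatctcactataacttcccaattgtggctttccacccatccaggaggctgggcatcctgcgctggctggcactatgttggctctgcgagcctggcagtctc
Il6 upstream: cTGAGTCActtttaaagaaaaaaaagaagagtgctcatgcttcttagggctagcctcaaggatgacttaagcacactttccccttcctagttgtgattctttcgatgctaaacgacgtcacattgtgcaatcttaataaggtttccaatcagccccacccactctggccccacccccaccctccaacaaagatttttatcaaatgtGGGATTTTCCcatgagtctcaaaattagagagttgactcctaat
The motifs searched on both strands were AP-1 (TGANTCA, found in 6.87% of 27025 promoters over the same 250 bases), the NF-kB motif (7.01%), C/EBP (TTGCNNCAA, 1.78%) and CRE (TGACGTCA, 1.62%). In Il6 the AP-1 letters stood at -249 to -243 and the NF-kB letters at -44 to -35, counted from the transcript start, and the matches did not overlap. A match is a match of letters only, and binding was not measured.

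Across the 6 libraries each member had its own distribution over the cell classes. Of the 13863 Il33 UMIs, 80.7% lay in Dpp4+ fibroblasts, the largest class, with 4.49% in Icam1+ preadipocytes and 4.15% in the much smaller Cd142+ class, although the mean log2 CPM of Dpp4+ fibroblasts (5.92) was close to that of Cd142+ fibroblasts (5.56). By level Il33 was highest in the 59 lymphatic endothelial cells, at 351 ± 231.1 CPM (SD, n = 6), from few UMIs. The decoy receptor gene Il1r2 had 80.0% of its 164612 UMIs in Dpp4+ fibroblasts, and Il18r1, the binding chain for IL-18, 91.5% of its UMIs. Il1r1, the signalling receptor for IL-1, had the reverse order, with 58.1% of 53957 UMIs in Icam1+ preadipocytes and 27.2% in Dpp4+ fibroblasts. The accessory chain gene Il1rap was more even, with 52.2% of 9373 UMIs in Dpp4+ and 35.0% in Icam1+ cells. Il1rl1, which encodes the IL-33 receptor, was scarce, with 921 UMIs in all, of which 64.1% lay in Dpp4+ fibroblasts and 5.10% in the 255 immune cells.

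The order of the levels was compared between neighbouring classes with two-sided exact paired permutation tests over the 6 libraries. Of 50 neighbour pairs, 24 reached the smallest p that 6 pairs of libraries allow, and none passed the threshold after Benjamini-Hochberg adjustment (smallest adjusted p = 0.0651), so the orders are given as directions shared by libraries. Il1r2 stepped down from Dpp4+ fibroblasts to Cd142+ fibroblasts by 1.87 ± 0.45 log2 units (SD of the 6 paired differences) and from there to Icam1+ preadipocytes by 1.01 ± 0.36, each in 6 of 6 libraries. Il1rl2, which encodes the IL-36 receptor, had the same order with steps of 0.58 ± 0.18 and 0.54 ± 0.21. Il1r1 was highest in Icam1+ preadipocytes, but its lead over Cd142+ fibroblasts of 0.34 ± 0.31 held in 5 of 6 libraries (exact permutation p = 0.0625), while the step from Cd142+ to Dpp4+ fibroblasts of 0.76 ± 0.22 held in 6 of 6. Il6 was highest in Cd142+ fibroblasts, 1.60 ± 0.68 log2 units above smooth muscle cells and pericytes in 6 of 6 libraries, and the levels of smooth muscle cells and pericytes, Dpp4+ and Icam1+ cells could not be ordered (exact permutation p = 0.3125 and 0.6875). Il11ra1 ran from Cd142+ to Icam1+ to Dpp4+ cells in steps of 0.62 ± 0.14 and 0.77 ± 0.11, each in 6 of 6 libraries. Il1rap, Tslp, Il1rl1 and Il18r1 each had 1 of 5 neighbour pairs at the smallest p. By mean level Il18r1 and Il1rl1 ranked first in the immune cells. They stood above Dpp4+ fibroblasts by 0.47 ± 1.24 in 4 of 6 libraries and 2.5 ± 2.2 in 5 of 6 (exact permutation p = 0.46875 and 0.09375). Tslp ranked first there too, 0.44 ± 1.25 above smooth muscle cells and pericytes in 3 of 6 libraries (exact permutation p = 0.4375). With classes taken from clusters in place of the marker gate, no cluster was named immune. That class was then empty, so the order over the same classes could not be repeated.

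**Figure D2:**
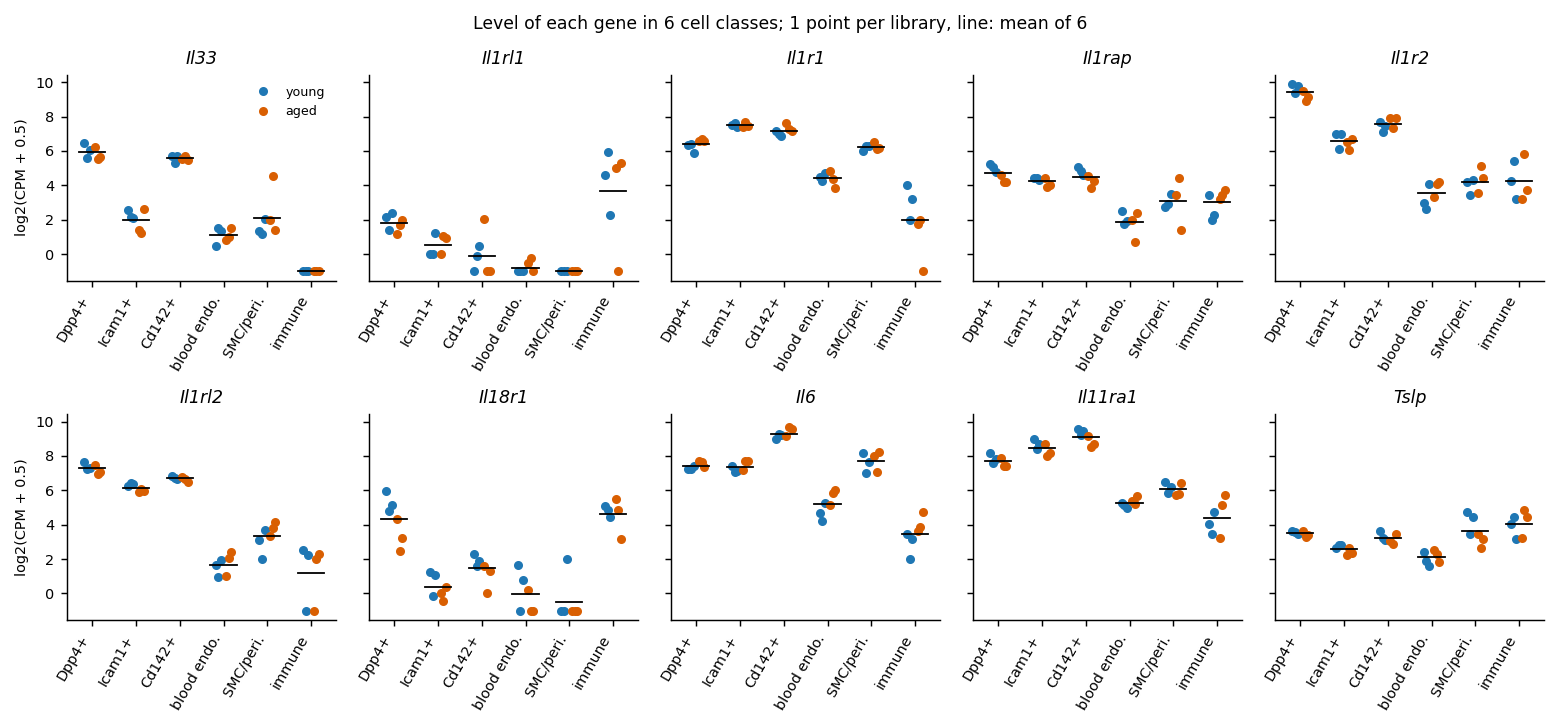
Level of each member in 6 cell classes as log2(CPM + 0.5), with 1 point per library and a line at the mean of the 6 libraries. Il33 and Il1r2 sit high in Dpp4+ fibroblasts, Il18r1 in Dpp4+ fibroblasts and immune cells, Il1r1 in Icam1+ preadipocytes, and Il6 and Il11ra1 in Cd142+ fibroblasts.

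The shares of cells with a UMI followed these levels. After cells were thinned to 2000 UMIs each, with shallower cells left out, an Il33 UMI was found in 10.8% of Dpp4+ fibroblasts (95% exact binomial interval 10.4% to 11.2%, counting error only), 7.44% of Cd142+ fibroblasts and 0.560% of Icam1+ preadipocytes, against 0.222% in blood endothelial cells. Before thinning the share in Dpp4+ fibroblasts was 28.4%. Il1r2 was found in 63.5% of thinned Dpp4+ fibroblasts, 24.7% of Cd142+ and 13.6% of Icam1+ cells, with 1.42% in blood endothelial cells as the background. Il6 was found in 46.3% of Cd142+ fibroblasts, 20.1% of Dpp4+ and 17.7% of Icam1+ cells, 4.33% of blood endothelial cells and 0.917% of Schwann cells, whose median depth was 3136 UMIs. Single Cd142+ and Dpp4+ fibroblasts carried up to 56 Il6 UMIs, and the tenth of Dpp4+ cells with the most Il6 held 62.9% of its UMIs in that class. Il1rl1 was found in 0.477% of thinned Dpp4+ fibroblasts, and Il18r1 in 4.78% of Dpp4+ fibroblasts, 5.22% of immune cells, 0.136% of Icam1+ preadipocytes and 0.111% of blood endothelial cells.

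Dpp4+ fibroblasts had the most members called for age, and these went mainly downward. Their sums held 16242052 to 39904385 UMIs per library, against 1510515 to 2417682 in Cd142+ fibroblasts. Counts of calls in these classes are therefore not on equal terms. All 10 genes passed the filter on low counts there, and 5 were lower and 1 was higher in aged cells by edgeR's quasi-likelihood test at an adjusted p of 0.05, where 8.32% of the 13157 genes tested were lower and 7.81% were higher. The median log2 fold change of the 10 was -0.30, and that of all genes 0.00038. The genes that fell were Il18r1, Il1rap, Il1r2, Il11ra1 and Il1rl2, and the gene that rose was Il1r1. In bulk sums of a class, fewer expressing cells and less RNA per cell cannot be told apart.

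Il18r1, the IL-18 binding chain, had the largest difference. Its levels in Dpp4+ fibroblasts were 60.5 CPM at TN, 27.4 after 3D and 35.4 after 14D cold in young mice and 19.2, 5.13 and 8.85 CPM in aged mice. Every aged library lay below every young library, with means of 41.1 ± 17.3 and 11.1 ± 7.29 CPM (SD, n = 3 each). Il18r1 fell by 2.02 log2 units (SE 0.12, edgeR adjusted p = 7.86e-06), and it kept the call under all 16 alternatives, between -2.31 and -1.86. The share of thinned Dpp4+ fibroblasts with an Il18r1 UMI was 9.73%, 4.78% and 6.31% for young mice and 3.33%, 0.919% and 1.5% for aged mice, in the same order of temperatures, against 0.412% or less in blood endothelial cells of any library. The accessory chain gene Il18rap, named after its values were seen, stood at 0 to 0.285 CPM in Dpp4+ fibroblasts.

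Because immune cells carry Il18r1 and Il1rl1 too, immune marker RNA within the Dpp4+ class was measured beside them. The summed level of the 9 immune gate markers in Dpp4+ fibroblasts was 2.33 to 6.21 CPM in young and 1.36 to 5.61 CPM in aged libraries, that of 7 T cell and innate lymphoid markers 1.27 to 3.16 and 0.997 to 2.13 CPM, and that of 6 mast cell markers 0.0518 to 0.695 and 0.0616 to 3.01 CPM, with 1 of the 6 at 0. Macrophage markers were 12.3 to 21.6 CPM in young and 21.4 to 23.2 CPM in aged Dpp4+ sums, mesothelial markers 3.93 to 8.09 and 7.57 to 26.8 CPM, adipocyte markers 3.36 to 6.59 and 7.70 to 12.3 CPM, neutrophil markers 0 to 0.302 and 0.0464 to 0.246 CPM and red blood cell genes 3.58 to 145.2 and 124.4 to 469.3 CPM. The mesothelial sum was almost all Krt19, named after its values were seen, at 3.80, 6.71 and 7.99 CPM in young and 7.39, 21.9 and 26.7 CPM in aged cells. Msln and Upk1b were at 0 in every library. The class's own markers were lower with age. The 10 Dpp4+ gate markers summed to 8047 to 9806 CPM in young and 7593 to 7975 CPM in aged libraries and the pan-fibroblast markers to 28000 to 38430 and 19060 to 23420 CPM, without overlap. The part of all these markers in the age differences was not tested.

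Il1rap, the accessory chain of the IL-1, IL-33 and IL-36 receptors, was 38.1, 32.7 and 26.8 CPM in young Dpp4+ fibroblasts at TN, 3D and 14D cold and 24.2, 17.98 and 18.1 CPM in aged ones. The groups did not overlap, and Il1rap fell by 0.72 (SE 0.07, edgeR adjusted p = 0.000143). Il1r1 went the other way, with 80.9, 84.8 and 58.9 CPM in young and 93.5, 104.5 and 93.8 CPM in aged Dpp4+ fibroblasts, again without overlap. It rose by 0.37 (SE 0.08, adjusted p = 0.0116). The signalling chain for IL-1 and its accessory chain thus moved in opposite directions in the same sums.

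The decoy gene Il1r2 was 958, 661 and 892 CPM in young and 719, 483 and 574 CPM in aged Dpp4+ fibroblasts. The ranges overlapped across temperatures, but at each temperature the aged library was lower, and Il1r2 fell by 0.53 (SE 0.07, edgeR adjusted p = 0.00147). Il1rl2 was 203.5, 152 and 154 CPM in young and 174, 125 and 131 CPM in aged cells, and fell by 0.28 (SE 0.06, adjusted p = 0.00917), a call lost without the young 3D cold (adjusted p = 0.0682) or the aged 3D cold library (0.0570). Il11ra1, the binding chain for IL-11, was 290.3, 196 and 225 CPM in young and 231, 171 and 173 CPM in aged cells, and fell by 0.33 (SE 0.07, adjusted p = 0.0101). For Il1rl2 and Il11ra1 too the ages overlapped across temperatures and the aged library was lower at each temperature.

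The other 4 members did not pass the age test in Dpp4+ fibroblasts. Il33 was 89.1, 47.3 and 65.1 CPM in young and 75.2, 46.6 and 50.6 CPM in aged cells, a log2 fold change of -0.24 (SE 0.08, edgeR adjusted p = 0.0779) that passed in 6 of 16 alternatives, all with the same sign (such as -0.35 with the young or the aged 3D cold library left out). Il1rl1, its receptor gene, was between 2.15 and 4.74 CPM in young and between 1.72 and 3.43 CPM in aged cells, a log2 fold change of -0.45 with a SE of 0.24 (adjusted p = 0.259), at levels that rest on 590 UMIs, and it passed with the young or the aged 3D cold library left out (-0.82). Il6 was 151, 149 and 173 CPM in young and 206, 196 and 165 CPM in aged cells, so the aged 14D cold library lay inside the young range (log2 fold change 0.23, adjusted p = 0.181). Without the young 14D cold library the Il6 value was 0.42 (adjusted p = 6.72e-07) and without the aged 14D cold library 0.42 (adjusted p = 0.000510), since either fit rests on TN and 3D cold alone. Tslp was between 10.7 and 12.1 CPM in young and between 9.05 and 12.1 CPM in aged cells.

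**Figure D3:**
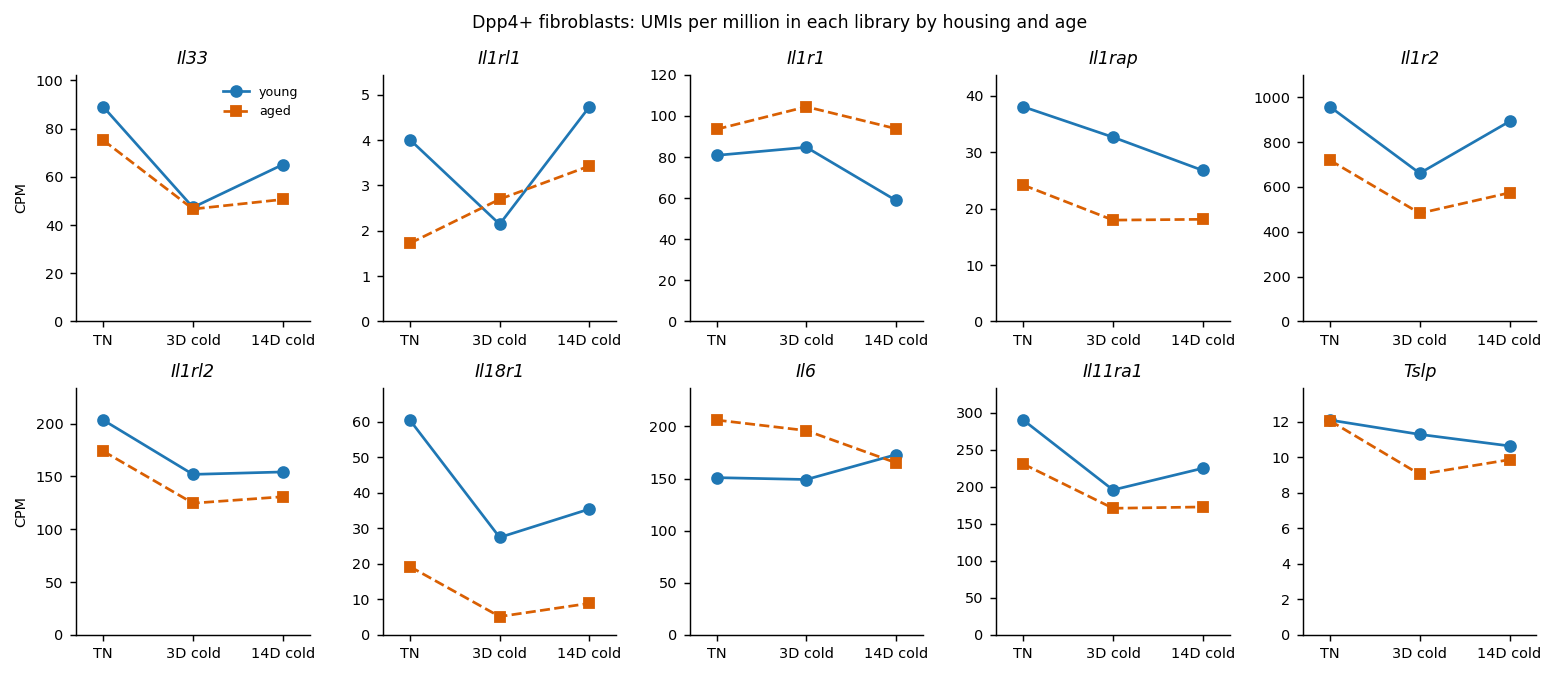
CPM of each member in Dpp4+ fibroblasts at TN and after 3D and 14D cold, with 1 point per library, young as blue circles and aged as orange squares. The aged points lie below the young point at each temperature for Il18r1, Il1rap, Il1r2, Il1rl2 and Il11ra1 and above it for Il1r1.

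Some of these calls depended on which Dpp4+ fibroblasts were summed. In the gated Dpp4+ cells of the largest Dpp4+ cluster alone, an alternative added after seeing the data, 14.8% of 12530 genes passed in either direction. There 7 members passed, with -2.31 for Il18r1, -0.87 for Il1rap, -0.56 for Il1r2 and 0.49 for Il1r1. In the cells of the cluster led by Dmkn, Krtdap and Sbsn alone, which holds most Dpp4+ cells of the aged TN library, 5.05% of 10839 genes passed, and of the members only Il18r1 did (log2 fold change -2.06, edgeR adjusted p = 6.52e-05). There Il1r2 was at 0.12 (adjusted p = 0.764), Il1rl2 at 0.01 (0.971) and Il11ra1 at 0.19 (0.461), with the sign turned, Il1rap at -0.15 (0.620) and Il1r1 at 0.47 (0.105). Leaving out the aged TN library gave 6 members past the threshold and leaving out the aged 14D cold library gave 7.

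In Icam1+ preadipocytes 3 of the 10 members were lower and 0 were higher in aged cells (edgeR), where 5.79% of 13377 genes tested were lower and 7.15% were higher, and the median log2 fold change of the 10 was -0.31. No member was higher at an unadjusted p under 0.05 either, and DESeq2 called 0 higher and 2 lower. The aged TN library stood apart here too, by cluster counts over all kept cells. The preadipocyte cluster led by Cox8b held 193 of its cells, against 1195 to 2860 in each other library. The preadipocyte cluster led by Cyp26b1 held 3770, against 676 to 972. Age was not tested within either cluster alone, and the part of this shift in the Icam1+ values was not tested. Il1rl2 was 74.4, 85.6 and 80.9 CPM in young and 59.8, 66.6 and 62.4 CPM in aged preadipocytes, without overlap, and fell by 0.35 (SE 0.06, adjusted p = 0.00912). Il11ra1 was 506, 338 and 416 CPM in young and 409, 255 and 288 CPM in aged cells, lower at each temperature with overlapping ranges, and fell by 0.41 (SE 0.07, adjusted p = 0.00977). Il18r1 passed as well, at -1.31 (SE 0.33, adjusted p = 0.0383), but it rested on 155 UMIs in all, at 0.402 to 1.92 CPM in young and 0.238 to 0.7999 CPM in aged cells, and missed the threshold in 9 of 13 alternatives, among them each library left out in turn. Dpp4+ gate markers summed to 462 to 545 CPM in young and 340.4 to 693 CPM in aged Icam1+ sums, and their part in the Il18r1 value was not tested. For no member did the age effect differ between Dpp4+ fibroblasts and Icam1+ preadipocytes past the threshold of edgeR's interaction test, where 1.62% of genes did. At an unadjusted p under 0.05 there were 2, Il1rap with a difference of 0.45 (adjusted p = 0.0755) and Il1r1 with -0.35 (adjusted p = 0.127).

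Il1r1, at its highest in this class, was 184, 196 and 167 CPM in young and 166, 208 and 174 CPM in aged Icam1+ preadipocytes, a log2 fold change of -0.0011 (edgeR adjusted p = 0.994). Il6 was 169, 135 and 138 CPM in young and 147, 206 and 210.1 CPM in aged preadipocytes, with the aged TN library inside the young range (log2 fold change 0.34, SE 0.16, adjusted p = 0.204), and it passed at 0.63 without the young TN or the aged TN library. Il1r2 was 127, 69.3 and 127 CPM in young and 90.9, 65.7 and 102 CPM in aged cells (log2 fold change -0.29, adjusted p = 0.0795), with -0.42 and past the threshold with the young or the aged 3D cold library left out, and Il1rap stood at -0.28 (adjusted p = 0.109). Macrophage markers in this class summed to 12.8 to 25.0 CPM in young and 32.6 to 50.2 CPM in aged sums, and blood endothelial markers to 46.7 to 63.7 and 62.9 to 175 CPM.

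Cd142+ fibroblasts, where 8 members could be tested (Il1rl1 and Il18r1 were too low), had 2 lower and 2 higher in aged cells by edgeR's test, against 4.34% of 9538 genes lower and 4.76% higher. Il11ra1, at its highest in this class, was 758, 599 and 707 CPM in young and 568, 372 and 415 CPM in aged cells, without overlap, and fell by 0.61 (SE 0.10, adjusted p = 0.000353). Il1rap was 32.7, 27.7 and 23.8 CPM in young and 22.5, 13.8 and 18.5 CPM in aged cells, without overlap, and fell by 0.62 (SE 0.19, adjusted p = 0.0434). Il1r1 was 141, 127 and 115 CPM in young and 195, 154 and 143 CPM in aged cells, without overlap, and rose by 0.37 (SE 0.10, adjusted p = 0.0215). Il6 was 496, 614 and 587 CPM in young and 567, 810.4 and 759 CPM in aged cells, higher at each temperature with the aged TN library inside the young range, and rose by 0.33 (SE 0.09, adjusted p = 0.0288). With any single library left out the Il6 call was lost (0.26 to 0.40, adjusted p 0.0512 to 0.243), and the Il1r1 and Il1rap calls were each lost without the young TN, young 3D cold, aged TN or aged 3D cold library (Il1r1 0.31 to 0.39, Il1rap -0.68 to -0.47). DESeq2 gave no adjusted p for Il1rap and called 1 of the other 3, Il11ra1 (Il1r1 0.261 and Il6 0.0745). Il33 was 51.5, 38.9 and 52.1 CPM in young and 46.0, 51.1 and 43.7 CPM in aged cells, a log2 fold change of 0.0069 (adjusted p = 0.987). The summed Cd142+ gate markers were 2573 to 2724 CPM in young and 1982 to 2323 CPM in aged sums, the summed Icam1+ gate markers 3753 to 4474 and 2624 to 3678 CPM and the pan-fibroblast markers 57270 to 73360 and 33790 to 43050 CPM, all without overlap, and their part in these differences was not tested.

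**Figure D4:**
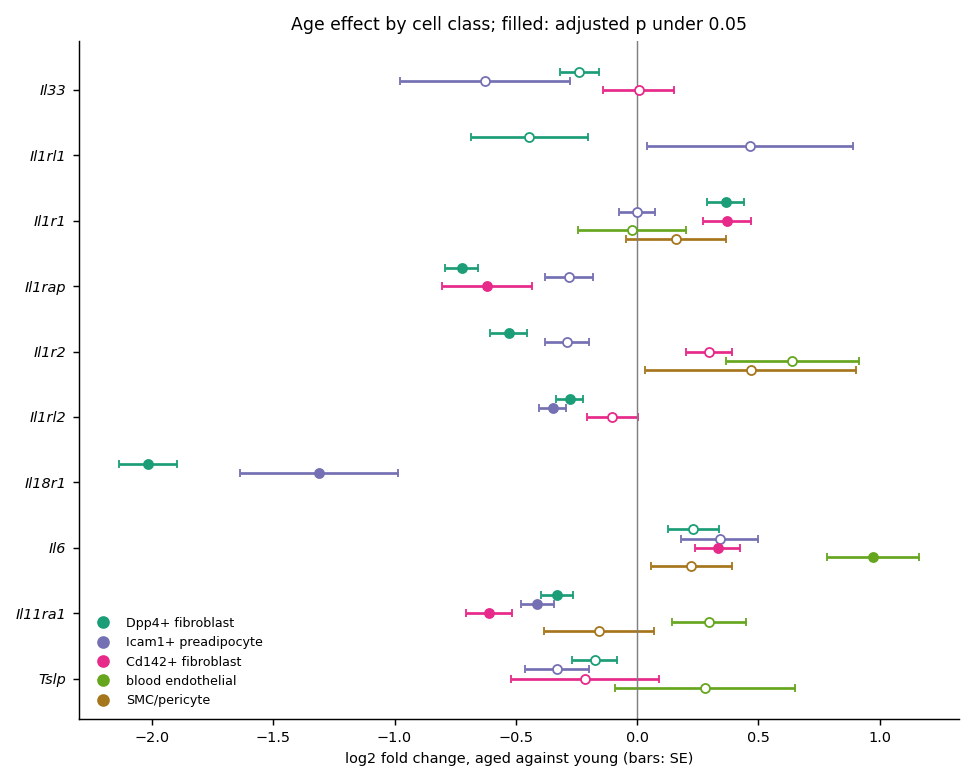
Log2 fold change of aged against young for each member in each class where it was tested, with bars of 1 SE and filled points where the edgeR adjusted p is under 0.05. Il18r1 in Dpp4+ fibroblasts stands farthest from 0, and Il1r2 lies below 0 in Dpp4+ and above 0 in Cd142+ fibroblasts.

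The decoy gene Il1r2 was the member whose age effect differed between fibroblast classes. In Cd142+ fibroblasts it was 208, 137 and 176 CPM in young and 241, 159.5 and 238 CPM in aged cells, higher at each temperature but not past the threshold (log2 fold change 0.30, SE 0.10, edgeR adjusted p = 0.0635). Against Dpp4+ fibroblasts of the same libraries the age effect was 0.83 higher in Cd142+ fibroblasts (SE 0.11, adjusted p = 0.000138), and against Icam1+ preadipocytes it was 0.60 higher (SE 0.12, adjusted p = 0.0207). These were the only members called in those interaction tests, in which 1.51% and 1.41% of genes passed. The difference from Dpp4+ fibroblasts was called under all 8 alternatives (0.59 to 0.90), while that from Icam1+ preadipocytes missed the threshold in 5 of 8, including without the young TN, young 14D cold, aged TN or aged 3D cold library (0.48 to 0.61). None of the 8 took single Dpp4+ clusters. The age effect on Il1r2 was downward in the largest Dpp4+ cluster but 0.12 (edgeR adjusted p = 0.764) in the one led by Dmkn.

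**Figure D5:**
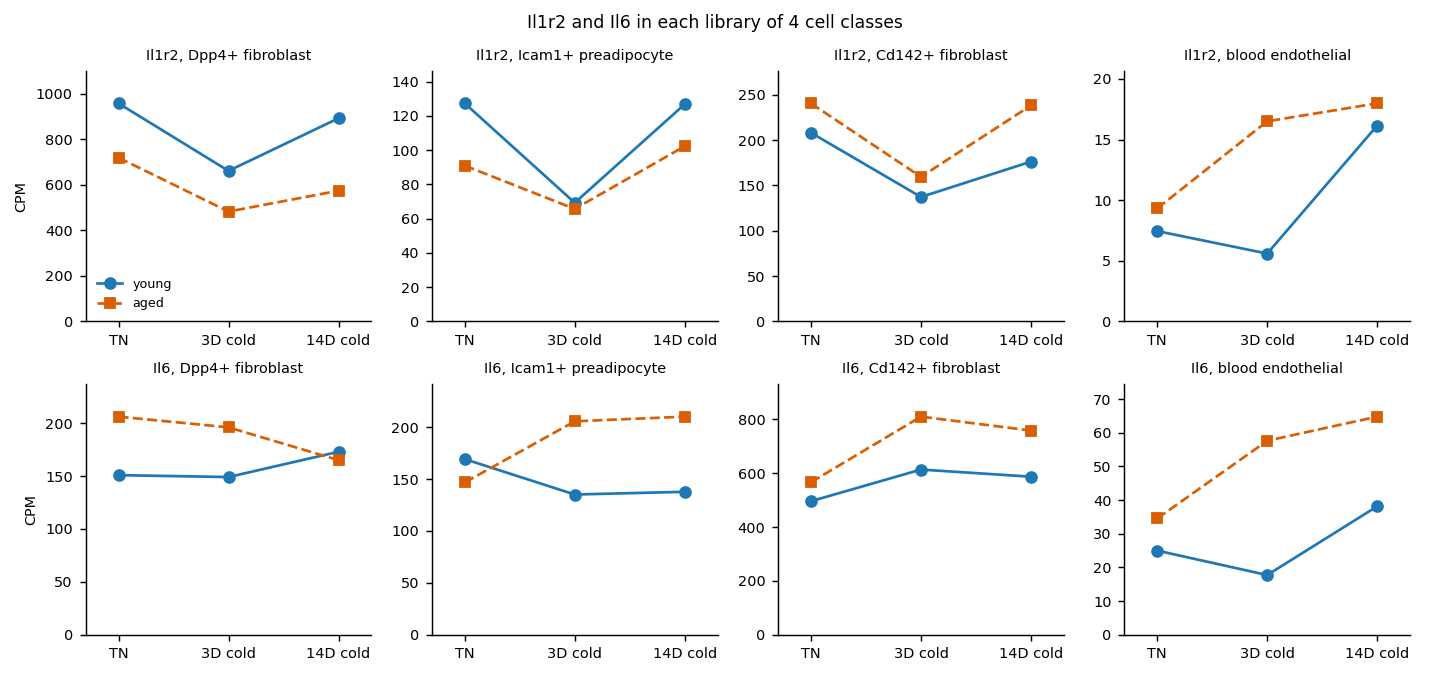
CPM of Il1r2 and Il6 in Dpp4+ fibroblasts, Icam1+ preadipocytes, Cd142+ fibroblasts and blood endothelial cells by temperature, 1 point per library, young as blue circles and aged as orange squares. Il1r2 is lower in the aged library at each temperature in Dpp4+ fibroblasts and higher at each temperature in Cd142+ fibroblasts, and Il6 is higher in the aged library at each temperature in Cd142+ fibroblasts and blood endothelial cells.

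Outside the fibroblasts few members were measured well enough to be tested. In blood endothelial cells 5 members were tested, and Il6 rose while none fell (edgeR), where 0.716% of 10051 genes were higher and 0.388% were lower. No member was lower at an unadjusted p under 0.05, and DESeq2 gave no member an adjusted p for age there. Il6 was 25.0, 17.7 and 38.1 CPM in young and 34.5, 57.6 and 64.8 CPM in aged endothelial cells, with the aged TN library inside the young range, and rose by 0.97 (SE 0.19, adjusted p = 0.0274). The value rests on 615 UMIs, the call was lost without the young 3D cold library (0.65, adjusted p = 0.224) or the aged 3D cold library (0.65, adjusted p = 0.264), in thinned cells (1.05, adjusted p = 0.0844) and with high doublet scores left out (0.83, adjusted p = 0.0650), and the pan-fibroblast markers in the same sums were 724, 545 and 925 CPM in young and 538, 883 and 1314 CPM in aged libraries. Their part in the Il6 difference was not tested. With classes from clusters Il1r2 turned and was called lower in aged endothelial cells (-0.83, adjusted p = 0.000288).

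Smooth muscle cells and pericytes had 4 members tested, and none passed the age test of edgeR or reached an unadjusted p under 0.05 in it, where 1.45% of 6607 genes were higher and 0.288% were lower. In DESeq2 only Il6 had an adjusted p for age, which did not pass. Il6 was 284.5, 130.4 and 201 CPM in young and 256, 134 and 305 CPM in aged libraries there. No Il1rl1 UMI was found in that class, where 3 UMIs over all libraries would be 0.795 CPM. In the 255 immune cells no member passed the filter on low counts, 9 could be tested without it with 0 passing for age or temperature in edgeR, and 0.0254% of 3936 genes were lower and 0% higher with age. Il18r1 was 33.9, 28.2 and 21.4 CPM in young and 44.0, 28.0 and 8.61 CPM in aged immune cells from 51 UMIs, Il1rl1 ranged from 0 to 59.99 CPM from 47 UMIs, and Il33 had no UMI, where 3 UMIs would be 1.70 CPM. The 59 lymphatic endothelial cells were too few to test, but their Il33 levels were 504, 525 and 462 CPM in young and 78.3, 30.6 and 506 CPM in aged libraries, from 36, 44, 56, 5, 1 and 12 UMIs.

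Temperature was tested over both cold groups together with age as a term, so each temperature had 2 libraries. In Dpp4+ fibroblasts 6 of 10 members changed with temperature (edgeR), where 5.59% of genes did, and all 6 had their lower values in the cold. Il33 was lowest after 3D cold, with log2 fold changes against TN of -0.82 after 3D and -0.49 after 14D (adjusted p = 0.00610), and both ages had their highest Il33 level at TN. Il18r1 stood at -1.43 after 3D and -0.88 after 14D (adjusted p = 0.00274), again with the highest level of each age at TN and the lowest after 3D. The other changes with temperature were Il1rl2 (-0.47 and -0.39, adjusted p = 0.00941), Il11ra1 (-0.52 and -0.38, adjusted p = 0.0173), Il1r2 (-0.57 and -0.20, adjusted p = 0.0210) and Il1rap (-0.33 and -0.45, adjusted p = 0.0317). In 5 of the 6, the exception being Il1rap, the 3D value was below the 14D value. Single libraries decided some of these calls: Il1r2 was lost with the young or the aged 3D cold library left out (adjusted p = 0.175 and 0.0626), Il11ra1 without young TN or young 3D cold (0.0599 and 0.0641) and Il1rap with the young or the aged TN library left out (0.0751 and 0.0821), while Il33, Il18r1 and Il1rl2 stayed past the threshold with any library left out. The Il33 change was lost within single clusters, at -0.20 (adjusted p = 0.126) in the largest Dpp4+ cluster and -0.40 (adjusted p = 0.0552) in the cluster led by Dmkn, while Il18r1 passed in both (-0.74 and -0.79).

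The same comparison reached fewer members in the other classes. In Icam1+ preadipocytes 2 of 10 changed with temperature against 3.59% of genes: Il11ra1 (-0.59 after 3D and -0.38 after 14D, edgeR adjusted p = 0.0245) and Il1r2 (-0.64 and 0.09, adjusted p = 0.0289). In Cd142+ fibroblasts 1 of 8 did, against 1.94% of genes, again Il1r2 (-0.61 and -0.13, adjusted p = 0.0174). The Icam1+ calls were lost without young 3D cold, and that of Il11ra1 also without aged TN or aged 3D cold, and the Cd142+ call was lost with any single TN or 3D cold library left out. The decoy gene was thus lowest after 3D cold in both ages in each of the 3 fibroblast classes. In smooth muscle cells and pericytes 1 of 4 did, against 1.76% of genes: Il6, at -1.05 after 3D and -0.14 after 14D (adjusted p = 0.00819), a call lost without the aged 3D cold library. In blood endothelial cells 0 of 5 passed in edgeR, 0 in DESeq2 and 2 had an unadjusted p under 0.05 (Il1r2 and Il6), where 1.44% of genes passed. In immune cells no member was tested, and 0% of genes passed.

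Other genes of these pathways were followed as lists. Their counts stand beside the shares of all genes called higher and lower with age. These were 7.81% and 8.32% in Dpp4+ fibroblasts, 7.15% and 5.79% in Icam1+ preadipocytes, 4.76% and 4.34% in Cd142+ fibroblasts, 0.716% and 0.388% in blood endothelial cells and 1.45% and 0.288% in smooth muscle cells and pericytes. Of 10 IL-1 family ligands and binding proteins, 2 could be tested in each fibroblast class, and Il18, the ligand of IL18R1, was lower in aged Dpp4+ fibroblasts: 122, 93.0 and 127 CPM in young and 92.6, 73.1 and 85.2 CPM in aged cells, a fall of 0.47 (SE 0.07, edgeR adjusted p = 0.00223). Neither of the 2 passed in Icam1+ or Cd142+ cells, so the ligand gene and the receptor gene of the IL-18 pair both fell in Dpp4+ fibroblasts. Il1b, which encodes IL-1β and was named after its values were seen, was 17.2 to 475 CPM in the immune cells left after sorting and 0 to 0.185 CPM in Dpp4+ fibroblasts. Of 4 other IL-1 family receptor genes none could be tested in Dpp4+ and Cd142+ fibroblasts and 1 in Icam1+ preadipocytes, which did not pass. Of the 6 genes beside the chromosome 1 cluster, 0 of 3 tested passed in Dpp4+ fibroblasts and 0 of 1 in Cd142+ fibroblasts, while in Icam1+ preadipocytes Tmem182 rose by 1.32 (adjusted p = 0.0428) among 3 tested.

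Downstream of the IL-1 receptors, 2 of the 16 signalling genes tested passed upward and 0 downward with age in Dpp4+ fibroblasts, 2 and 0 of 16 in Icam1+ preadipocytes and 2 and 0 of 14 in Cd142+ fibroblasts. Nfkb1, a subunit of NF-kB, rose in all 3 classes by 0.40, 0.34 and 0.72 (edgeR adjusted p = 0.00289, 0.0283 and 6.85e-05, in the order Dpp4+, Icam1+ and Cd142+). Irak3, an inhibitor of IRAK signalling, rose by 0.42 in Dpp4+ and 0.54 in Cd142+ fibroblasts (adjusted p = 0.00119 and 0.0269), and Irak2 rose by 0.54 in Icam1+ preadipocytes (adjusted p = 0.0451). Of 15 NF-kB target genes, 5 were higher and 1 lower of 14 tested in Dpp4+ fibroblasts, 1 and 2 of 14 in Icam1+ preadipocytes, 6 and 0 of 12 in Cd142+ fibroblasts, 3 and 0 of 13 in blood endothelial cells and 4 and 0 of 12 in smooth muscle cells and pericytes. The neutrophil chemokine gene Cxcl2 was 51.5, 41.5 and 84.3 CPM in young and 136, 142 and 128 CPM in aged Dpp4+ fibroblasts, without overlap, and rose by 1.22 (adjusted p = 0.00239). Ptgs2, the inducible cyclooxygenase, was 253, 281 and 209.6 CPM in young and 445.5, 456 and 643 CPM in aged Cd142+ fibroblasts, without overlap, and rose by 1.05 there (adjusted p = 2.85e-05) and by 0.28 in Dpp4+ fibroblasts (adjusted p = 0.0338). Tnfaip3, a feedback inhibitor of NF-kB, rose by 0.75 in Dpp4+ and 0.61 in Cd142+ fibroblasts (adjusted p = 0.0123 and 0.00693), while Saa3, an acute phase protein gene, fell by 1.20 in Icam1+ preadipocytes (adjusted p = 0.0176).

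These target genes overlap in kind with genes induced by tissue dissociation, which were measured beside them. Of 13 dissociation response genes 3 passed upward and 1 downward in Dpp4+ fibroblasts, 3 and 0 in Icam1+ preadipocytes, 3 and 0 in Cd142+ fibroblasts, 0 and 0 in blood endothelial cells and 5 and 0 in smooth muscle cells and pericytes. Among them Nr4a1 rose by 0.51, 0.63 and 0.63 in the Dpp4+, Icam1+ and Cd142+ classes, Hspa1a by 0.86 in Icam1+ preadipocytes, and Ier3 by 0.69 and Junb by 0.42 in Cd142+ fibroblasts. Their summed level was 21130 to 24500 CPM in young and 19370 to 26200 CPM in aged Dpp4+ fibroblasts, and the ages overlapped in Icam1+ and Cd142+ cells, blood endothelial cells and smooth muscle cells and pericytes as well. In immune cells (7020 to 8096 CPM in young and 8829 to 13250 in aged) and Schwann cells (29890 to 30440 and 33080 to 37510 CPM) they did not overlap. Their part in the Il6, Cxcl2 and Ptgs2 values was not tested.

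Of 13 genes of the IL-6 family of ligands and receptors, 2 were higher and 0 lower of 8 tested in Dpp4+ fibroblasts, 1 and 1 of 11 in Icam1+ preadipocytes and 2 and 0 of 6 in Cd142+ fibroblasts. Osmr, the oncostatin M receptor chain, rose in the 3 classes by 0.58, 0.35 and 0.35 (edgeR adjusted p = 0.00179, 0.0228 and 0.0386). Lifr, the LIF receptor chain, rose by 0.38 in Dpp4+ fibroblasts (adjusted p = 0.0147) and fell by 0.43 in Icam1+ preadipocytes (adjusted p = 0.00624), and Il6ra, the IL-6 binding chain, rose by 0.41 in Cd142+ fibroblasts (adjusted p = 0.0438). Of 8 signalling genes of the family 1 was higher in Dpp4+ fibroblasts, 1 was higher and 1 lower in Icam1+ preadipocytes and none passed in Cd142+ fibroblasts: the transcription factor gene Stat3 rose by 0.24 and 0.31 in the first 2 classes (adjusted p = 0.0291 and 0.0179), and the feedback inhibitor gene Socs1 fell by 0.39 in Icam1+ preadipocytes (adjusted p = 0.0226). So in aged Dpp4+ fibroblasts the IL-11 binding chain gene fell while the oncostatin M and LIF receptor chain genes rose.

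Of 8 genes for TSLP and type 2 cytokine signals, 2 were higher and 1 lower of 7 tested in aged Dpp4+ fibroblasts, 1 and 0 of 7 in Icam1+ preadipocytes and 1 and 0 of 6 in Cd142+ fibroblasts. Crlf2, the TSLP binding chain, was 5.31, 5.08 and 5.24 CPM in young and 16.6, 19.7 and 17.7 CPM in aged Dpp4+ fibroblasts. The ages lay far apart, and Crlf2 rose by 1.76 (SE 0.10, edgeR adjusted p = 6.10e-06), by 0.73 in Icam1+ preadipocytes (adjusted p = 0.00589) and by 1.60 in Cd142+ fibroblasts (adjusted p = 0.00604). Tslp itself did not pass in any class, with log2 fold changes of -0.18, -0.33 and -0.22 in the same order. Il7, whose receptor shares a chain with that of TSLP, rose by 1.69 in Dpp4+ fibroblasts (adjusted p = 0.0207) at levels of 0.125 to 0.285 CPM in young and 0.556 to 0.677 CPM in aged cells, and Il4ra, the IL-4 receptor chain, fell by 0.33 (adjusted p = 0.0169).

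The genes whose levels ran most like those of the members over the 18 sums of 3 fibroblast classes and 6 libraries are given as a description. The sums share libraries and the classes differ in depth, so no test was made. Pearson's r of log2 CPM with Il33 was 0.98 for Gda, 0.98 for Epdr1 and 0.97 for Cadm3. With Il1r2 it was 0.98 for Islr, 0.98 for Ddah2 and 0.97 for 6030419C18Rik. With Il18r1 it was 0.96 for Foxo1, 0.96 for Cd248 and 0.96 for Slc16a9, and Foxo1 was also among the 3 nearest genes of Il1rl2 (0.95), with Trim35 and Ndrg4 (each 0.95). The genes nearest to Il1r1 were Lmo4 (0.95), Jam2 (0.94) and Sparcl1 (0.94), and those nearest to Il1rap were Cbx6 (0.94), Rab28 (0.91) and Col4a5 (0.87). Those nearest to Il11ra1 were Srpx (0.97), Tmem205 (0.97) and Igf1 (0.96). With Il6 it was 0.96 for Meox2, which is among the markers that set the Cd142+ class, 0.96 for Naalad2 and 0.96 for Ralgps2.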

How the data were processed

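The authors aligned the 10x Genomics 3' v3.1 reads to mm10 with Cell Ranger 3.1.0 and deposited raw counts, that is UMIs per gene and barcode called as a cell, without normalization. The submitters' processing notes also name R 4.1.1 and Seurat, whose filters, integration and tests of single cells are not in these counts.

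Here Python 3.11.15 (numpy 2.4.6, scipy 1.17.1, scikit-learn 1.9.0, leidenalg 0.10.2) and R 4.3.3 (edgeR 4.0.16, DESeq2 1.42.0) were used. Barcodes with over 200 genes within 3 median absolute deviations of their library's median log10 UMIs, log10 genes and mitochondrial percentage were kept. Cells took the class of their highest marker score (at least 0.25, margin 0.1). Doublets were left in. UMIs were summed per library and class, for the 6 classes with at least 20 cells in every library set for testing. Both age and temperature were terms of 1 edgeR model per class (TMM, filterByExpr, 2 residual degrees of freedom), and each was tested by the quasi-likelihood F test with Benjamini-Hochberg adjustment over all genes tested at a threshold of 0.05. Class by age was tested over 12 sums with library as a block. Scripts were tested on simulated data.

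All members were named in every class where they were tested. Of each pathway or marker list at most the 4 genes with the largest called fold change in a fibroblast class were named, and for each member with 20 CPM in a fibroblast sum the 3 genes with the highest correlation. The members and lists were chosen with earlier results of these data known. Levels of different genes were not compared.

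Alternatives tried were DESeq2 in place of edgeR, RLE factors, no filter, no temperature or age term, each library left out, classes from clusters (6000 variable genes without members and markers, 15 components, 20 neighbours, resolution 0.5), limits of 1000 to 7000 genes and 10% mitochondrial UMIs, cells thinned to 2000 UMIs in equal number, and high doublet scores left out (0.8% per 1000 barcodes). The sums of single clusters, and the rule that a cluster whose 10 leading genes hold more markers of another class than of its own stays unnamed, were chosen after seeing the data.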

Additional observations from a re-analysis of the deposited data

Results flagged for a closer look

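The age effect on Il1r2, the decoy receptor gene for IL-1, differed between fibroblast classes of the same libraries by edgeR's interaction test with library as a block. From Dpp4+ to Cd142+ fibroblasts it differed by 0.83 log2 units (SE 0.11, adjusted p = 0.000138), with aged below young at each of the 3 temperatures in Dpp4+ fibroblasts and above at each in Cd142+ fibroblasts. From Icam1+ preadipocytes to Cd142+ fibroblasts it differed by 0.60 (SE 0.12, adjusted p = 0.0207), and this call was lost in 5 of 8 alternatives. Neither single effect in Cd142+ fibroblasts nor that in Icam1+ preadipocytes passed on its own (adjusted p = 0.0635 and 0.0795). No interaction was fitted within single Dpp4+ clusters. In the Dpp4+ cells of the cluster led by Dmkn alone the age effect on Il1r2 was 0.12 (edgeR adjusted p = 0.764), while it was downward in the largest Dpp4+ cluster.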

How the results depend on the processing

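No paired analysis was possible because replicate numbers paired no libraries, each age and temperature holding 1; age was compared within temperature by its term, classes were paired by library in the level tests, and the interaction tests carried library as a block. Of 14 age calls with 205 alternative values, 154 stayed past the threshold in the same direction, 48 missed it and 3 turned; of 10 temperature calls with 152, 111 stayed, 35 missed and 6 turned; of 2 interaction calls with 16, 11 stayed and 5 missed. A further 55 member results were called under no setting, and 77 of their 588 alternative values changed sign. For age DESeq2 gave no adjusted p for any member in blood endothelial cells, for Il1rap in Cd142+ fibroblasts or for the members other than Il6 in smooth muscle cells and pericytes. The cluster partition also moved with numerical settings, which were pinned. The cause of the changes below was not tested, except that fits without a term or a library have other residual degrees of freedom. The counts of age values take the fits without the young and without the aged library of a temperature singly, though both rest on the other temperatures alone. An age call lost in both cannot be laid to a single library.

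The count of members called for age went in Dpp4+ fibroblasts from 6 to 2 without the temperature term and 1 in the cluster led by Dmkn; in Icam1+ preadipocytes from 3 to 5 without the filter and 0 without the temperature term; in Cd142+ fibroblasts from 4 to 1 with DESeq2, 0 without the temperature term and 2 in thinned cells; in blood endothelial cells from 1 to 0 without the temperature term, in thinned cells and without doublets, and to 2 with classes from clusters. For temperature it went in Dpp4+ fibroblasts from 6 to 0 without the age term; in Icam1+ preadipocytes from 2 to 4 without the filter and 0 without the age term; in Cd142+ fibroblasts from 1 to 0 with DESeq2, without the age term and with fixed cell limits, and to 3 without the filter and with classes from clusters; in blood endothelial cells from 0 to 2 without the filter and 3 with classes from clusters; in smooth muscle cells and pericytes from 1 to 0 with DESeq2, without the age term, with classes from clusters and in thinned cells. Classes from clusters also took the Icam1+ to Cd142+ interaction from 1 to 0. The 32 level pairs counted past the threshold there include pairs with the empty immune class. They cannot be set against the 0 of the main order.

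With each library left out, age calls were 6 to 7 in Dpp4+, 3 to 4 in Icam1+, 1 to 3 in Cd142+ (1 without young TN, young 3D cold, aged TN or aged 3D cold), 0 to 1 in endothelial cells (0 without young 3D cold or aged 3D cold) and 0 in smooth muscle cells and pericytes. Temperature calls were 4 to 7, 0 to 4, 0 to 3, 0 to 2 and 0 to 1 in the same order, and interaction calls 0 from Dpp4+ to Icam1+, 1 from Dpp4+ to Cd142+ and 0 to 2 from Icam1+ to Cd142+.

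Signs turned as follows, temperature by the 14D value. For age: Il1r2 0.116, Il1rl2 0.0115 and Il11ra1 0.193 in the Dmkn cluster, and Il1r2 in endothelial cells -0.83 with classes from clusters (adjusted p = 0.000288) and -0.0698 without doublets. For temperature: Il1rl1 in Dpp4+ cells -0.0750 in the Dmkn cluster, Il1r2 in Icam1+ cells -0.0106 without doublets, Il18r1 in Icam1+ cells -0.0859 and Il11ra1 in endothelial cells -0.26 (adjusted p = 0.0406) with classes from clusters, and in thinned cells Il1r2 in Cd142+ cells 0.25 and Il6 in smooth muscle cells and pericytes 0.25. Over single libraries left out, temperature values ran through 0 from -0.336 to 0.237 for Il6 in Dpp4+ cells, in Icam1+ cells from -0.481 to 1.345 for Il33, -0.166 to 0.115 for Il1r1, -0.0752 to 0.270 for Il1r2, -0.288 to 0.676 for Il18r1 and -0.310 to 0.557 for Il6, and from -0.274 to 0.366 for Il11ra1 in endothelial cells and -0.519 to 0.162 for Il6 in smooth muscle cells and pericytes, with the extremes each without aged TN, aged 14D cold, young TN or young 14D cold.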
